A study of Mus musculus with 2 samples.

Results

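Interferon-high myeloid cells were the leukocytes of TSA tumors that carried the most RNA of 5 interferon-induced genes, and they made up 247 of the 6198 cells in the data. They were chosen by measured RNA levels. Each cell was scored by the mean of ln(1 + UMIs per 10000) over Ifit1, Ifit2, Ifit3, Rsad2 and Cmpk2, where a UMI (unique molecular identifier) marks 1 captured RNA molecule. The 5% of all cells with the highest score were taken, and those with a UMI of Cd3e (T cells) or Ncr1 (NK cells), or with 3 or more UMIs of the cycling genes Birc5, Top2a and Ube2c together, were left out. The remaining cells are called interferon-high cells here, and the 5221 other cells without Cd3e and Ncr1 are called other cells.

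The study asked how nicotinamide (NAM), an amide form of vitamin B3, acts on mammary carcinoma and its immune infiltrate. Tumors arose from mammary adenocarcinoma cells of the line TSA, placed under the skin of BALB/c mice, and CD45+ leukocytes were enriched from the tumors with magnetic beads. The untreated library pooled leukocytes of 3 mice and held 2922 cells, and the NAM library pooled leukocytes of 3 mice given 0.5% NAM in drinking water for 10 days and held 3276 cells. With 1 library per group, differences between libraries and effects of NAM cannot be told apart, no test was possible, and all intervals are exact 95% intervals that cover counting error only.

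Type I interferons bind the receptor made of Ifnar1 and Ifnar2, which signals through Stat2 and Irf9 in the complex ISGF3. This complex binds interferon-stimulated response elements in promoters and switches on antiviral genes, while interferon gamma acts through the receptor made of Ifngr1 and Ifngr2. Macrophages and monocytes in tumors are known both to make type I interferon after sensing nucleic acids and to respond to it.

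The myeloid label was checked against marker genes. The summed level of 10 macrophage markers (among them C1qa, C1qb, C1qc, Csf1r and Cd68) had a median of 240.8 UMIs per 10000 in interferon-high cells of untreated mice and 202.6 in those of NAM-treated mice. It was 276 and 283 in other cells, but 11.9 and 11.8 in cells with Cd3e. The median interferon-high cell thus carried less macrophage RNA than the median other cell, but far more than that of cells with Cd3e. The lower quartiles were 73.7 and 77.1, against 108 and 109 in other cells, and the set was mixed, as described below. The B cell marker Ms4a1, the NK markers Klrb1c, Klre1, Eomes and Prf1, and the epithelial marker Epcam were each at 0 UMIs in the interferon-high cells of both libraries. Other genes of these lists were found at low levels. The 7 NK markers were all at 0 in 89.3% and 90.5% of interferon-high cells, the 5 B cell markers in 86.8% and 88.9%, and the 6 epithelial markers in 96.7% and 92.9%, against 89.6% and 87.3%, 85.8% and 88.7%, and 90.1% and 88.2% of other cells. The summed level of 8 neutrophil markers had a median of 0 per 10000 in interferon-high cells of both libraries and reached at most 29.1 without and 8.18 with NAM. Markers of plasmacytoid dendritic cells were higher as a sum, and the median over 6 markers was 10.2 and 8.38 per 10000 against 3.32 and 3.31 in other cells. This list holds Bst2, also an antiviral effector, at 1006 and 881 CPM against 355 and 364. Its defining marker Siglech had 5 and 0 UMIs, and Siglech, Ccr9 and Klk1 were at 0 in NAM-treated interferon-high cells. The part of such cells in the results was not tested. Of the other T cell genes, Cd3d had 6 and 2 UMIs and Cd3g had 3 and 2. No further cell type was named.

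The score separated a tail rather than a cluster. No UMI of any of the 5 genes was found in 68.1% of all cells, and the lowest score taken was 0.944. The next cell below scored 0.929, 24 interferon-high cells lay within 0.1 above the lowest score taken, and 22 cells that met the same gates lay within 0.1 below it. At least 2 of the 5 genes were detected in every interferon-high cell, and all 5 were detected in 62.8% of untreated and 50.8% of NAM-treated ones. The median score was 1.55 without and 1.69 with NAM, and 1.40 and 1.51 after each cell was thinned to 3000 UMIs. The interferon-high cells had a median of 9478 UMIs per cell without and 9154 with NAM, against 9449 and 9469 in other cells. Those with little C1q RNA (a range described below) were shallower, with 7776 and 5571 against 8584 and 7637.5, and the part of depth was not tested. The median mitochondrial share was 2.14% and 2.38%, against 2.48% and 2.65%. The 2 libraries shared 11 cell barcodes, none of them among the interferon-high cells.

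**Figure D1:**
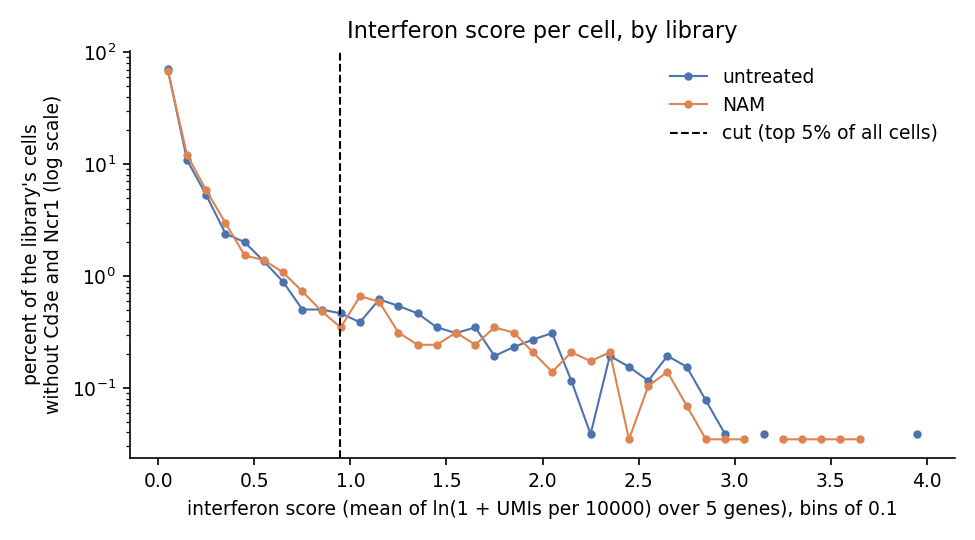
Percent of the cells without Cd3e and Ncr1 (log scale) in bins of 0.1 of the interferon score, for each library, with the lowest score taken as a dashed line. Both libraries fall steeply up to the line and then run out in a long, thin tail, with only small dips of a few cells near the line (10 cells in the lowest such bin of each library), and empty bins are left blank.

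The response element can be read in the promoters of the genes that define these cells. Its core was searched as GAAANNGAAA, or TTTCNNTTTC on the other strand, in the 250 bases before each gene start in RefSeq (GRCm38.p6, the assembly of mm10). The core was present in 2.98% of all 32851 windows of this length. The windows shown run from 220 to 51 bases before the start, 5′ to 3′ on the strand of the gene, with the cores in capitals. Ifit1, Ifit3 and Rsad2 stand for the score, Isg15 and Cxcl10 for genes that were high in the same cells without being scored, and Ifit2 for a scored gene without this core in the window.
Ifit1, chr19:34640669-34640838, plus strand: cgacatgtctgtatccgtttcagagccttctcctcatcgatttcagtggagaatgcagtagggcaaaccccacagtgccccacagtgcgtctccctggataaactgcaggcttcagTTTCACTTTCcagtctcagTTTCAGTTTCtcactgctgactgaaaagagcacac
Ifit3, chr19:34583309-34583478, plus strand: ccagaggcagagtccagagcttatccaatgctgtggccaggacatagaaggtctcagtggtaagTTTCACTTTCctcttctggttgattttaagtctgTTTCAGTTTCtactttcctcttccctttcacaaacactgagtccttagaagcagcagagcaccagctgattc
Rsad2, chr12:26456503-26456672, minus strand: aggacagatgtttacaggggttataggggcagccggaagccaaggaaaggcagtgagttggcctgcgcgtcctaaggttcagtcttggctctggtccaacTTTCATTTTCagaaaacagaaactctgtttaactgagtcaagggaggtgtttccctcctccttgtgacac
Isg15, chr4:156200869-156201038, minus strand: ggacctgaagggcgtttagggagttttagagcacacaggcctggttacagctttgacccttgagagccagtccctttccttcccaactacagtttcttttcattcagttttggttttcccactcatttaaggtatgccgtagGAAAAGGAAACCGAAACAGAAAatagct
Cxcl10, chr5:92348940-92349109, minus strand: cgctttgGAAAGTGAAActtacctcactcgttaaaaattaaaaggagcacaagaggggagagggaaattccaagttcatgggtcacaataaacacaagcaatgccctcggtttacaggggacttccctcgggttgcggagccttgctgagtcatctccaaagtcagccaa
Ifit2, chr19:34550474-34550643, plus strand: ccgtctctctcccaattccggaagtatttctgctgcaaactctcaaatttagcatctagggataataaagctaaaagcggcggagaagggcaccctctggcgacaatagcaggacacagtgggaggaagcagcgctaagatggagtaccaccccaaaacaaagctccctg
Ifit1 carried cores starting 104 and 85 bases before the start, and Ifit3 carried the same cores, TTTCACTTTC and TTTCAGTTTC, at 156 and 122. In Isg15, 3 cores starting at 78, 72 and 66 overlapped. The single core of Rsad2 started at 120 and that of Cxcl10 at 213. Cmpk2, which lies next to Rsad2 on chromosome 12, had no core in its window. A match describes letters only, and its absence says only that these letters are not in the window.

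By list, the core was found in 15 of 38 genes of antiviral effectors with a window and in 9 of 10 guanylate-binding proteins and immunity-related GTPases. It was found in 3 of 15 genes of MHC class I and peptide loading and in 0 of 7 genes of MHC class II, against 3.46% of all genes. The levels of these lists in interferon-high cells are described next. Of the 15 genes with the largest excess in interferon-high cells, 11 had a window and 7 of these held the core.

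UMIs were summed over the interferon-high cells of each library (1212593 and 1181262 UMIs), given as CPM (UMIs per 1000000 UMIs of the same cells) and compared with other cells of the same library. A gene was counted as higher or lower when it differed by 1.5-fold or more, among the 2738 genes with 100 or more UMIs over the interferon-high cells of both libraries. Since genes high in these cells pass that minimum more easily, and since the score was taken from the same cells, all comparisons with other cells are descriptions. Of the 2738 genes, 252 (9.20%) were higher in both libraries and 39 (1.42%) were lower in both. Within single libraries, 319 (11.7%) were higher and 111 (4.05%) lower in the untreated library, and 302 (11.0%) and 102 (3.73%) in the NAM library. The genes with the lowest ratios in both libraries by rank were Stmn1, Cks2, Hmgb2 and Tubb5, and cycling cells had been removed from the interferon-high cells but not from the other cells.

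The 5 scored genes themselves had between 27.3-fold and 66.3-fold higher levels than in other cells. Rsad2, which encodes the antiviral radical enzyme viperin, had 1196 CPM in the untreated library against 31.8 in other cells, and 1500 against 22.6 in the NAM library. Ifit1, whose product binds viral RNA lacking host cap marks, had 764 against 21.6 and 954 against 20.2. These values chose the cells and are given as a description.

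Antiviral effectors that were not scored were also high. Of 49 listed genes found in the files, 44 passed the minimum, and 43 of the 44 were higher in both libraries, beside 9.20% of all genes. Their median log2 ratio was 2.21 without and 2.12 with NAM, while the median over all genes was -0.07 and -0.08. The exception was Ifitm1, a membrane protein that blocks viral entry, with log2 ratios of 0.49 and 0.40. The largest ratio belonged to Ifit1bl1, with 68.4 CPM against 1.09 and 67.7 against 0.927. Mx1, a gene of the dynamin-like GTPase family, had 112 against 6.99 and 88.0 against 4.78. Both genes were thus over 15-fold higher in each library. Oas3, a synthetase of the 2-5A messenger that activates RNase L, had 116 against 14.9 and 93.1 against 12.8. Oasl1, a related protein without synthetase activity, had 479 against 55.7 and 455 against 33.1. Reads of Ifit3 and Ifit3b may be split between near-identical copies, so their separate levels are uncertain.

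Isg15, a ubiquitin-like modifier, and the genes that attach and remove it were all higher. Isg15 had 3129 CPM (3030 to 3230) in the untreated library and 3254 (3152 to 3359) in the NAM library, against 274 and 284 in other cells. Its log2 ratio was 3.52 in each library. Usp18, the protease that removes Isg15 and also dampens Ifnar2 signaling, had 572 against 38.6 and 506 against 37.9. Uba7, Ube2l6 and Herc6, the activating, conjugating and ligating enzymes, had log2 ratios from 1.00 to 3.16 in the untreated and from 1.25 to 2.85 in the NAM library.

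Of 13 listed nucleic acid sensors, 6 passed the minimum, and 5 of these were higher in both libraries, beside 9.20% of all genes. This minimum was counted in the interferon-high cells themselves, and the sensors under it are not described. Receptors for interferon over the minimum did not reach 1.5-fold. Ddx58, Ifih1 and Dhx58 (RIG-I, MDA5 and LGP2), which detect cytosolic RNA, had 109, 196 and 162 CPM in the untreated and 97.4, 148 and 129 in the NAM library. Levels in other cells were between 14.9 and 27.1. Zbp1, a sensor of Z-form nucleic acids, had 570 against 151 and 593 against 188. The exception among 6 sensor genes over the minimum was Tmem173 (STING), with log2 ratios of 0.29 and -0.23. Ifnar2 had 170 against 172 and 169 against 148 CPM, and Ifnar1 had 61.9 against 71.8 and 84.7 against 69.3. Ifngr1 had 91.5 against 137 and 97.4 against 146, which did not reach 1.5-fold. Downstream of the receptors, Irf9 had log2 ratios of 0.62 and 0.86, and Stat2 had 62.7 CPM against 13.7 and 63.5 against 13.3. Irf7, the regulator that amplifies type I interferon production, had 1789 against 381 and 1696 against 427, whereas Irf8 had log2 ratios of 0.04 and -0.10.

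Genes known to be induced by interferon gamma, though not by it alone, differed in how far they went along. All 10 guanylate-binding proteins and immunity-related GTPases over the minimum, which attack vacuoles of intracellular pathogens, were higher in both libraries, beside 9.20% of all genes, with medians of 1.79 and 1.34. Gbp2 had 265 CPM against 79.3 and 272 against 114. Cxcl10, a CXCR3 ligand that attracts T and NK cells, had 1725 against 231 and 1540 against 314, or 7.47-fold and 4.90-fold. Cxcl9, a further ligand of the same receptor, had 314 against 218 and 361 against 316, or 1.45-fold and 1.14-fold. The ligands thus differed in their excess in each library. MHC class I genes were in between, with medians of 0.53 and 0.30 and H2-T22 highest at 1.39 and 1.15. None of the 7 MHC class II genes over the minimum was 1.5-fold higher or lower in either library, beside 11.7% and 11.0% of all genes higher and 4.05% and 3.73% lower, shares at which a list of 7 can be expected to hold few or none. Their medians were -0.12 and -0.30. H2-Aa, for example, had 5576 against 6163 and 6292 against 8001. The MHC class II median was not alike in cells with little and much C1q RNA (ranges described below), at 0.70 and -0.38 below 20 per 10000 UMIs of C1q genes, -0.05 and -0.66 at 20 to 100, and -0.41 and -0.16 at 100 or more.

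Other chemokines, cytokines and surface genes were high in part. Ccl5 had 795 CPM against 277 and 763 against 344. Ccl12, a monocyte attractant, had 2591 against 1505 and 2730 against 1354, but Ccl2 and Ccl8 had log2 ratios between -0.23 and 0.22. Fcgr1, the high-affinity receptor for IgG, had 830.5 against 286 and 738 against 314. Il15, a survival cytokine of NK and memory T cells, had 95.7 against 18.3 and 97.4 against 19.1. Nampt, which turns NAM into nicotinamide mononucleotide, had 198 against 90.4 and 179 against 98.7, and it was the 1 of 4 NAD genes over the minimum that was higher in both libraries, a count too small to set beside the 9.20% of all genes. Kdr, a VEGF receptor known from endothelium, had 39.6 against 7.70 and 39.8 against 7.42 on 48 and 47 UMIs, while the endothelial gene Cdh5 had 1 and 0 UMIs.

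**Figure D2:**
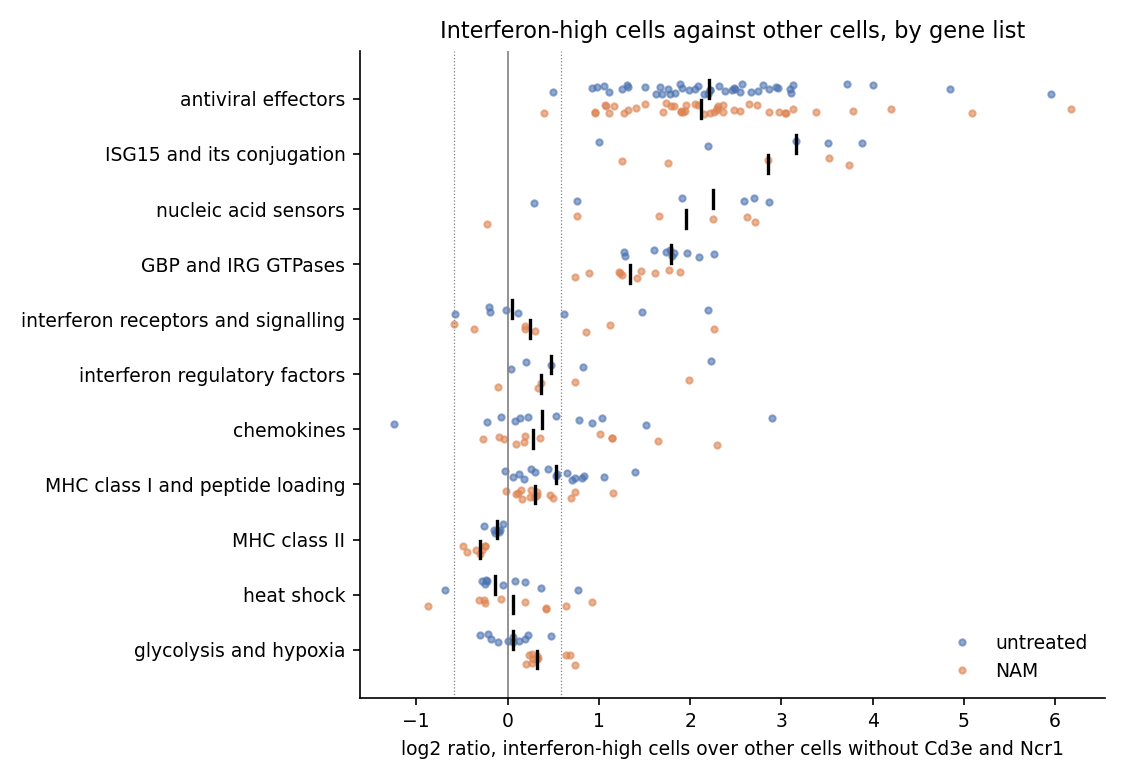
Each point is the log2 ratio of CPM in interferon-high cells over other cells for 1 gene with 100 or more UMIs, by gene list and library, with black bars at the list medians and dotted lines at 1.5-fold. Antiviral effectors, ISG15 conjugation and GTPases lie to the right in both libraries, and MHC class II genes lie just left of 0.

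Levels were also read over ranges of the score. Cells without Cd3e, Ncr1 and cycling genes were placed in 7 ranges of the score, chosen after the values had been seen. Pooled over both libraries, Isg15 went from 158 CPM in the 3240 cells with a score of 0 to 1618 in the 177 cells just below the lowest score taken. It reached 2244 in the 106 interferon-high cells of the range just above and 5081 in the 54 cells of the highest. Cxcl10 went from 213 to 497 up to that score and to 3218 in the highest range. Cxcl9 had 241 at a score of 0, 330.5 in the range just above the lowest score taken and 507 in the highest. In the untreated library Cxcl9 had 198 at a score of 0, 246 in the range before the highest and 611 (508 to 729) in the highest, and in the NAM library it had 280, 268 and 426 (349 to 514). With NAM the 4 ranges following a score of 0 had 459, 484, 421 and 411, so the highest range was not the peak there. H2-Aa declined from 7871 at a score of 0 to 4154 in the highest range. Usp18 had 213 CPM in the cells just below the score, against 15.9 at a score of 0. These are sums over cells ranked by the score that chose them, and they do not show whether single cells are graded.

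**Figure D3:**
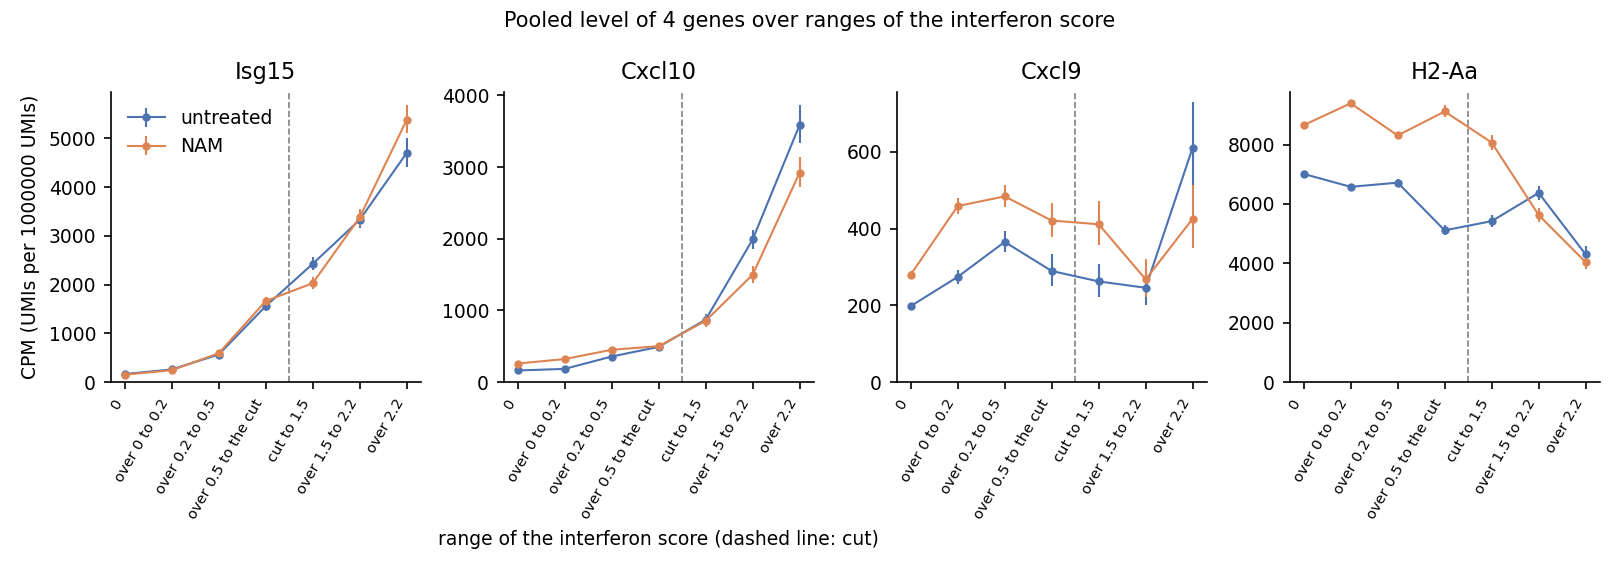
CPM (y axis, from 0) of Isg15, Cxcl10, Cxcl9 and H2-Aa in 7 ranges of the interferon score (x axis) for each library, with exact Poisson intervals and the lowest score taken as a dashed line. Isg15 and Cxcl10 climb through the line to 5081 and 3218 in the highest range of both libraries pooled, while pooled Cxcl9 stays between 241 and 507 and H2-Aa is lowest in the highest range.

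The interferon-high cells were not of 1 kind. Over all of them, Ly6c2 had 696 CPM against 206 in other cells of the untreated library and 845.7 against 174 with NAM, and Plac8 had 1242 against 289.6 and 1147 against 301, so genes of inflammatory monocytes were higher. Their part in the other results was not tested. Ranges of the summed level of C1qa, C1qb and C1qc, complement genes typical of macrophages, were chosen after the values had been seen. At 100 or more per 10000 UMIs there were 66 cells without and 67 with NAM, at 20 to 100 there were 19 and 25, and below 20 there were 36 and 34. The share of cells that were interferon-high was 4.05% (3.15 to 5.13) and 3.59% (2.79 to 4.53) in the highest C1q range, and 5.92% (4.18 to 8.10) and 4.84% (3.38 to 6.70) in the lowest, with intervals that overlapped. In the middle range it was 5.40% (3.28 to 8.30) and 8.06% (5.29 to 11.7), and the NAM interval lay above that of the highest range. In the lowest range, the summed level of Ly6c2 and Plac8 had a median of 43.6 and 72.3 per 10000 UMIs in interferon-high cells. Other cells of that range had 2.68 and 2.49, so the interferon-high cells with little C1q RNA were rich in monocyte genes in each library. In the highest range these medians were 0.580 and 1.01 against 0 and 0.

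The antiviral program was high in each C1q range, while chemokines were not alike. The median log2 ratio of antiviral effectors over other cells of the same range was 2.51 and 2.66 below 20, 1.90 and 1.87 at 20 to 100, and 2.15 and 2.02 at 100 or more. Isg15 had log2 ratios between 3.01 and 3.89 in all of them. Ccl4, an attractant of T cells and monocytes, had 4886 CPM against 343 in other cells of the lowest range in the untreated library and 5184 against 343 in the NAM library. In the middle range it had 2477 against 1058 and 7317 against 624, where 604, 515 and 478 of the 1881 UMIs with NAM were in 3 cells. In the lowest range with NAM, 565 of the 1224 UMIs were in 1 cell. In the highest range it had 2169 against 1895 and 2699 against 1797. Fcgr1 had ratios above 1.00 on the log2 scale in each range and library. Cxcl9 was uneven, with 571 against 86.4 below 20 in the untreated library but 165 against 99.3 in the NAM library.

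**Figure D4:**
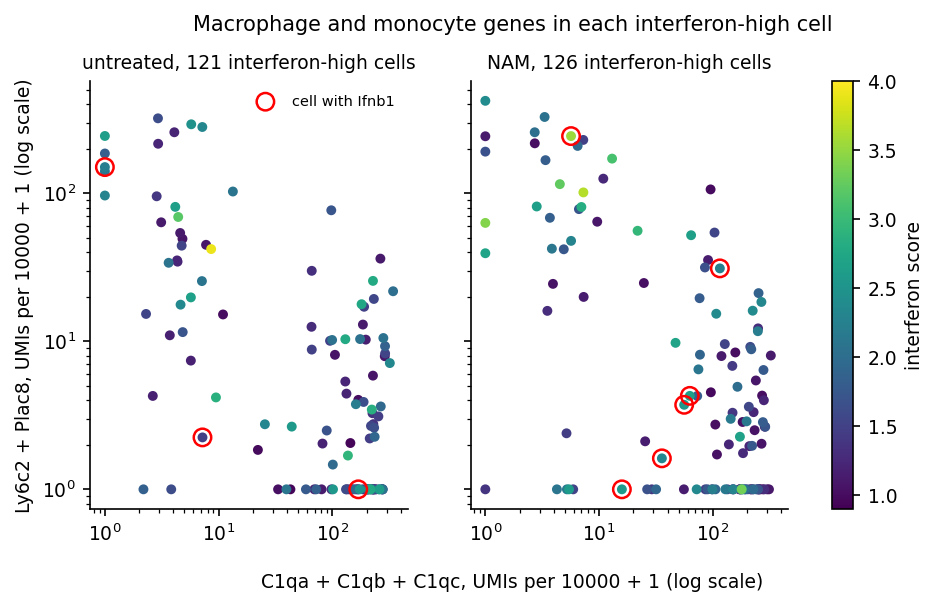
Each point is 1 interferon-high cell, placed by its C1qa + C1qb + C1qc level and its Ly6c2 + Plac8 level in UMIs per 10000 plus 1 (log axes) and colored by its score, with red rings around cells with a UMI of Ifnb1. Cells high in Ly6c2 and Plac8 sit mostly on the left, at low C1q, in both libraries, and high scores occur on both sides.

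The share of interferon-high cells did not differ between libraries beyond counting error. They made up 121 of 2922 untreated cells (4.14%, 3.45 to 4.93) and 126 of 3276 cells of the NAM library (3.85%, 3.21 to 4.56). The log2 ratio of these shares was -0.11 (-0.48 to 0.27), an interval that leaves room for a change of either sign. Of the other high-scoring cells, 5 and 13 were removed for Cd3e and 2 and 2 for Ncr1. A further 20 in each library were removed as cycling and, lacking Cd3e and Ncr1, were counted among other cells.

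Within interferon-high cells, NAM over untreated differed by 1.5-fold or more upward in 74 of 2738 genes (2.70%) and downward in 98 (3.58%). In other cells, with far more UMIs, the same genes gave 23 (0.840%) and 58 (2.12%). The antiviral program of the cells taken differed little between libraries. Cells of both libraries were taken by the same cut on 5 antiviral genes, which favors similar levels of this program. These values are therefore a description and do not show whether NAM left the program unchanged. Among 44 antiviral effectors, 1 was 1.5-fold higher and 0 were lower, with a median log2 ratio of -0.07 beside 0.01 for all genes, and Ifitm1 was the 1 gene above, at 216 and 342 CPM (log2 ratio 0.66, 0.43 to 0.89). It was higher in other cells too (0.75). Single cells carried much of Ifitm1, since 159 of its 404 UMIs with NAM were in 1 cell and 77.5% of its untreated UMIs in 5 cells. Its ratio was 0.48, under 1.5-fold, with the top 2.5% of scores, and 1.46 without the 5 cells with most of its UMIs in each library. Isg15 had a log2 ratio of 0.06 (-0.01 to 0.12) and Irf7 of -0.08 (-0.17 to 0.01). Of the scored genes, Rsad2 had a ratio of 0.33 (0.23 to 0.43) and Cmpk2 of -0.08 (-0.29 to 0.13). None of the sensors, the receptors with their signaling genes, or the genes of ISG15 conjugation passed 1.5-fold.

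Over all interferon-high cells, GTPases and MHC class II genes had lower NAM over untreated ratios than in other cells, but Irf1, Socs1 and H2-D1, given below, did not, and MHC class II reversed in the cells with most C1q RNA. The 10 guanylate-binding proteins and immunity-related GTPases had a median of 0.03 in interferon-high cells and 0.46 in other cells, and the ratio was below that of other cells for each of the 10, beside 51.6% of all genes. Iigp1, for example, had 369 and 398 CPM in interferon-high cells (0.11, -0.08 to 0.30) and 106 and 171 in other cells (0.70, 0.63 to 0.76). The 7 MHC class II genes had medians of 0.23 and 0.43, again below other cells for each gene. Cxcl10 had 1725 and 1540 in interferon-high cells (-0.16, -0.26 to -0.07) and 231 and 314 in other cells (0.44, 0.40 to 0.49), so the directions were opposite. By C1q range of interferon-high cells, Cxcl10 had -0.41 (-0.62 to -0.21) below 20, but intervals that include 0 at 20 to 100 (-0.26 to 0.26) and at 100 or more (-0.09, -0.21 to 0.02). The differences between the 2 sets of cells were not tested, since each rests on 1 library per group. The 16 MHC class I genes had a median of 0.10, against 0.26 in other cells, and 12 of the 16 lay below other cells, beside 51.6% of all genes. H2-D1, which did not, had 6760 and 9737 CPM (0.53, 0.49 to 0.57) beside 0.47 in other cells.

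The MHC class II ratio differed between C1q ranges of interferon-high cells, a difference that was not tested. Its median was -0.60 below 20 per 10000 UMIs of C1q genes, -0.18 at 20 to 100, and 0.60 at 100 or more. Other cells of the same ranges had 0.44, 0.44 and 0.40, so the ratio was below that of other cells for all 7 genes in each lower range and for 0 of 7 at 100 or more. The share of all genes below other cells was 45.9%, 56.7% and 50.9% in the same order. The GTPase median was 0.26, 0.16 and -0.01 in the same order, and that of antiviral effectors 0.08, -0.28 and -0.10. The GTPase ratio was below that of other cells for 6, 6 and 10 of the 10 genes, and 6 of 10 is near the shares over all genes. Markers of Cd209a dendritic cells moved too. The mean of their summed level over 6 markers was 1.58 per 10000 without and 0.382 with NAM in interferon-high cells, with 65.3% and 86.5% of cells at 0, and 1.34 and 1.06 in other cells. Their part in the MHC class II values was not tested.

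Irf1 and Socs1 were higher with NAM. Irf1, a transcription factor of the interferon gamma response, had 100 UMIs without and 189 with NAM, or 82.5 and 160 CPM (0.95, 0.60 to 1.32). Socs1, the inhibitor of JAK signaling, had 101 and 201 UMIs, or 83.3 and 170.2 CPM (1.03, 0.68 to 1.39). In other cells the ratios were 0.79 for Irf1 and 0.96 for Socs1, values close to those of interferon-high cells. By C1q range, Irf1 had 0.09 (-0.67 to 0.84) below 20, on 35 and 29 UMIs, 1.35 at 20 to 100 and 1.23 at 100 or more. With the top 2.5% of scores Irf1 had 0.55, under 1.5-fold. Cd274, which encodes PD-L1, had 68.4 and 92.3 CPM (0.43, 0.01 to 0.86) and did not pass 1.5-fold.

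Genes of glycolysis and hypoxia leaned toward NAM. The 11 genes over the minimum had a median of 0.38, beside 0.19 in other cells, and 4 of the 11 were 1.5-fold higher, beside 2.70% of all genes. Slc2a1, the glucose transporter GLUT1, had 73 and 147 UMIs, or 60.2 and 124 CPM (1.04, 0.63 to 1.47). Hilpda, a regulator of lipid droplets, had 322 and 576 (0.84, 0.66 to 1.02), whereas other cells had 374 and 346. Pgk1 (0.91, 0.33 to 1.53) and Bnip3 (0.66, 0.42 to 0.92) completed the 4. In interferon-high cells with C1q genes at 100 or more the list median was 0.08 and Hilpda was 0.46 (0.13 to 0.79), against list medians of 0.54 and 0.87 in the lower ranges.

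Some heat shock genes and Il10 were lower with NAM. Of 10 heat shock genes over the minimum, 3 were 1.5-fold lower, beside 3.58% of all genes, and their median was -0.33 (-0.35 in other cells), but -0.05 in interferon-high cells below 20 of C1q genes. Hspa1a, an inducible HSP70, had 1215 and 612 CPM (-0.99, -1.12 to -0.86), and Hspa1b had 152 and 35.6 (-2.08, -2.61 to -1.60). Other cells had ratios of -1.44 and -2.42 for these genes. Jun, an immediate early gene, had 498 and 215 (-1.21, beside -0.73 in other cells). It was the 1 of 12 listed immediate early genes that was 1.5-fold lower, beside 3.58% of all genes, and their median was 0.13. Both Hspa1a and Jun were reversed in interferon-high cells at 20 to 100 per 10000 UMIs of C1q genes. Hspa1a had 0.72 (0.29 to 1.19) there, against -0.40 below 20 and -1.34 at 100 or more. Jun had 1.13 (0.39 to 1.97) there, against -0.84 and -1.61. Il10, chosen after its values were seen because it lies under the minimum, had 71 UMIs in 28 untreated cells and 13 UMIs in 11 cells of the NAM library (-2.37, -3.39 to -1.55). In other cells its ratio was -1.54 (-1.67 to -1.41). Hspb1 (93 and 16 UMIs) rested largely on 3 untreated cells with 32, 21 and 17 UMIs.

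**Figure D5:**
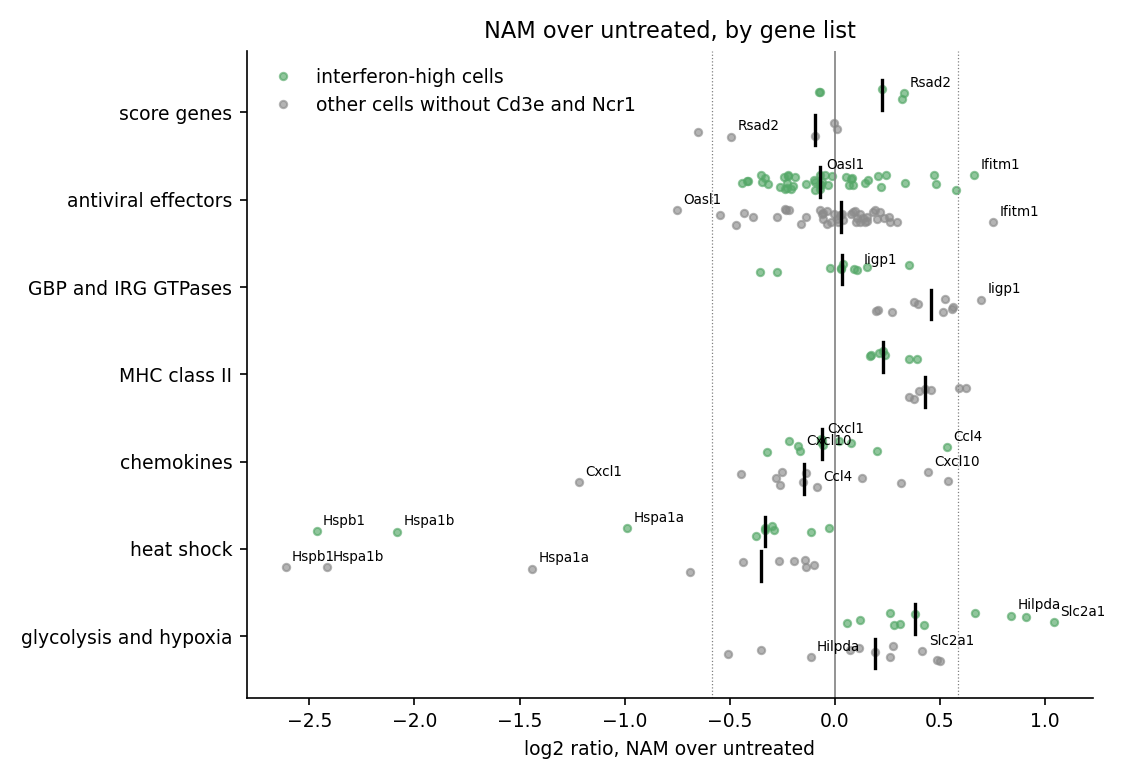
Each point is the NAM over untreated log2 ratio of CPM of 1 gene with 100 or more UMIs, in interferon-high cells (green) and in other cells (grey), by gene list, with black bars at medians and dotted lines at 1.5-fold. GTPases center at 0.03 in interferon-high cells and at 0.46 in other cells, and heat shock genes lie left of 0 in both.

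The genes with the largest ratios by rank were in part carried by single cells. Among the 10 highest, Hbb-bs had 13 and 309 UMIs, but 287 of the 309 were in 1 cell, and Hba-a1 and Hba-a2 likewise had 146 of 164 and 122 of 131 UMIs in 1 cell. These are hemoglobin genes of red blood cells, and other cells had ratios between 4.56 and 5.10. Tnfrsf9, the costimulatory receptor 4-1BB, had 28 UMIs in 18 untreated cells and 137 UMIs in 26 cells of the NAM library (2.31, 1.73 to 2.97), beside 0.73 in other cells. Rgcc had 31 and 131 UMIs (interval of the log2 ratio 1.54 to 2.73) and Itgb7, an integrin chain, had 27 and 82 (1.62, 1.00 to 2.33). Tnfrsf9, Rgcc and Itgb7 were still over 4-fold higher without the 5 cells with most UMIs in each library (2.02, 2.48 and 2.33 on the log2 scale). In cells at 100 or more per 10000 UMIs of C1q genes, however, Tnfrsf9 had 0.32 (-0.67 to 1.34) and Rgcc 0.66 (-0.43 to 1.86), intervals that include 0. Their ratios were 4.33 and 4.39 at 20 to 100, and 2.25 and 1.86 below 20. Among the 10 lowest, Ccr7, a receptor of migrating dendritic cells, had 105 UMIs, of which 73 were in 1 cell, and 7 UMIs with NAM. Mgl2, a lectin of dendritic cells and macrophages, had 104 UMIs in 23 cells and 17 in 10 (-2.54, -3.41 to -1.83). Fcrls, Cbr2, Slc39a1 and Etv3 had ratios between -1.75 and -1.59, and other cells had between -1.41 and -0.90.

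Ifnb1, which encodes interferon beta, was seen in few cells and was chosen for description after its values were seen. In the untreated library, 3 of 121 interferon-high cells held 6 UMIs of it, 2 in each. In the NAM library, 6 of 126 held 76 UMIs, with 44, 17, 9, 3, 2 and 1 per cell. Other cells held it in 3 of 2467 (10 UMIs, of which 8 were in 1 cell, the highest untreated value) and 2 of 2754 (2 UMIs), and cells with Cd3e in 0 of 242 and 0 of 344, which allows a share of cells with a UMI of up to 1.24% and 0.872% (3 counts of the total, not an exact interval). The share was 2.48% (0.514 to 7.07) and 4.76% (1.77 to 10.1) of interferon-high cells against 0.122% (0.0251 to 0.355) and 0.0726% (0.00880 to 0.262) of other cells. The cell with 17 UMIs of Ifnb1 was also the cell with 2 UMIs of Ifna2, and Ifna1, Ifna4 and Ifna5 had 0 UMIs in interferon-high cells of both libraries.

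The 4 cells with most Ifnb1 in the NAM library were also the 4 with most Ccl4. They held 478, 604, 515 and 565 UMIs of Ccl4, while the median interferon-high cell held 6. These 4 cells were deep, with 14115 to 18347 UMIs in all against a median of 9154, and the part of depth was not tested. In the untreated library, the cell with most Ifnb1 was among other cells and held 3 UMIs of Ccl4. The 3 untreated interferon-high cells with Ifnb1 held 130, 217 and 47, at ranks 8, 3 and 25. Over all interferon-high cells, Ccl4 had 2901 CPM without and 4201 with NAM (0.53, 0.47 to 0.60), beside -0.08 (-0.10 to -0.06) in other cells. Without all cells with Ifnb1 the ratio was -0.13, and without the 5 cells with most Ccl4 in each library it was 0.13. The size of the Ccl4 difference over all interferon-high cells thus rested largely on these few cells. The 4 cells lay below 100 per 10000 UMIs of C1q genes, and at 100 or more the Ccl4 ratio was 0.32 (0.22 to 0.41). Leaving out cells with Ifnb1 moved Ifit1 from 0.32 to 0.05, Rsad2 from 0.33 to 0.18 and Isg15 from 0.06 to -0.06, and left Cxcl10 at -0.16.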

How the data were processed

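The deposited values were whole UMI counts for each cell. The authors built 10x Genomics 3′ version 2 libraries and ran Cell Ranger 2.1.0 (study methods) with mm10. The submitters' processing notes name Cell Ranger and mm10 without a version. The annotation is not given in the sources used here. All barcodes exceeded 3000 UMIs, the study's filter. Coordinates came from GENCODE M21 and promoter windows from RefSeq (GRCm38.p6).

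Members and gene lists were chosen with earlier results of these data known. Cells were scored and taken by rule (UMIs scaled to 10000 per cell, top 5% of all cells). Counts were summed over cells per library and divided by the total to give CPM. Log2 ratios used a pseudocount of 0.5 UMIs. Intervals (95%, counting error only) were exact Poisson for levels, Clopper-Pearson for shares and conditional binomial for ratios. Genes needed 100 UMIs over both libraries, and 1.5-fold counted as higher or lower. Thinning used 3000 UMIs and seed 1, which left out 0 cells. The lists held 218 genes, 3 without a matching symbol, and the markers 121, 5 without. Named genes were the scored genes, listed genes over the minimum, markers, the 15 with the largest excess over other cells in their weaker library, and the 10 largest and 10 smallest ratios of NAM over untreated whose interval left out 0 and which kept 1.5-fold without the 5 highest cells per library. No doublet caller was run. Alternatives were other cuts of the score, scores without 1 gene, thinning, other scaling, other minimums and dropped cells. The script was tested on simulated data. Python 3.11.15, NumPy 2.4.6, SciPy 1.17.1, pandas 2.3.3 and matplotlib 3.10.9 were used. Some genes that the rule names are not reported here.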

Additional observations from a re-analysis of the deposited data

Results flagged for a closer look

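For 6 of 167 listed genes over the minimum (3.59%, beside 2.05% of all 2738 genes) the interval of the NAM over untreated log2 ratio lay on one side of 0 in interferon-high cells and on the other side in other cells, a difference that was not tested. In interferon-high cells the ratio was 0.53 for Ccl4, 0.84 for Hilpda, 0.33 for Rsad2 and 0.075 for Ccl12, and in other cells it was -0.08, -0.11, -0.49 and -0.15. It was -0.16 for Cxcl10 and -0.23 for Phf11b in interferon-high cells, against 0.44 and 0.15 in other cells. Over 11 alternatives, the Ccl12 ratio in interferon-high cells ran from -0.28 to 0.22 and kept its sign in 8. That of Ccl4 ran from -0.13 to 0.85 and kept its sign in 10, and those of Hilpda, Rsad2, Cxcl10 and Phf11b kept theirs in 11. Rsad2 is one of the 5 genes that chose the cells, so its values are a description. Cells with Cd3e, which the interferon-high cells leave out, also reached the top 5% of scores, in 2.07% (0.674 to 4.76) of 242 such cells in the untreated and 3.78% (2.03 to 6.38) of 344 in the NAM library. The log2 ratio of these shares was 0.87 (-0.71 to 2.71).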

How the results depend on the processing

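No paired analysis was possible because each group was 1 library with no replicate. The log2 ratio of the shares of interferon-high cells stayed between -0.20 and 0.03 over 11 alternatives, and the medians of NAM over untreated stayed between -0.15 and 0.02 (antiviral effectors), -0.08 and 0.14 (GTPases) and 0.04 and 0.60 (MHC class II) over 13. The excess over other cells moved with the score taken. For antiviral effectors it was 2.39 and 2.33 (untreated and NAM) with the top 2.5% and 1.94 and 1.90 with the top 10%. The GTPase median of the untreated library was 2.02 and 1.57 there, and 1.56 without the 5 cells with most UMIs of the gene. Counts of genes past 1.5-fold depended most on the minimum, and a lower one admits more genes, each with fewer UMIs. Genes higher and lower with NAM numbered 198 and 273 at 50 UMIs, 526 and 708 at 20, 2253 and 2920 at 1, and 25 and 32 with cells thinned to 3000 UMIs, where fewer genes pass. With the top 10% 187 were lower, and without the 5 highest cells 113 were higher. Against other cells, thinning gave 169 higher and 18 lower (untreated) and 146 and 20 (NAM), and a minimum of 20 gave 659, 811, 628 and 724. At 50, 297 and 267 were lower. Without the 5 highest cells, which are a larger part of interferon-high than of other cells, 473 and 445 were lower and 199 higher in the NAM library. Lower genes in the untreated library numbered 175 with the top 10%, and in the NAM library 52 with the top 2.5%, 49 with cycling cells kept and 58 against other cells without cycling cells. Within cells at 100 or more per 10000 UMIs of C1q genes, an alternative chosen after seeing the data, 206 were higher and 53 lower (untreated) and 181 and 26 (NAM). With the top 2.5%, Irf1 (0.55), Ifitm1 (0.48) and Hba-a1 (0.43) fell below 1.5-fold, as did Hilpda with the top 10% (0.52) and, with cells thinned, Hilpda (0.56) and Slc2a1 (0.50), and Ifitm1 was 1.39 with a score from thinned cells. Single genes with a ratio past 1.5-fold reversed their NAM over untreated ratio, and the cause was not tested. These were Hspb1 (0.56) and Areg (0.48) with the top 2.5%, Ccr7 with a score from thinned cells (0.69), and Ccr7 (0.87) and Ifnb1 (-0.72) in cells at 100 or more of C1q genes. Ratios under 1.5-fold changed sign too over 11 alternatives. Among these were Ifit1 (-0.19 to 0.35), Irf7 (-0.14 to 0.12), Isg15 (-0.06 to 0.24), Cxcl9 (-0.11 to 0.82) and Ccl12 (-0.28 to 0.22).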

Other observations

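Each group was 1 pool of mice, so the spread between animals is unknown, and doublets were not removed. Without the interferon-high cells over 2 times the median UMIs of their library, 113 and 117 remained. Actb, chosen after its values were seen, had 18903 CPM in untreated and 6886 in NAM-treated interferon-high cells (log2 ratio -1.46), and 14525 and 7570 in other cells (-0.94). Saa3, also chosen afterwards, had 206 UMIs in untreated interferon-high cells, of which 202 were in 1 cell, and 0 in NAM-treated ones. Retnla had 249, of which 169 and 78 were in 2 cells, and 2.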
